A study of Mus musculus with 8 samples.

Results

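The genes described here encode mitochondrial ribosomal proteins. They were chosen by symbol alone, as every row of the liver table whose symbol was Mrpl or Mrps followed by a number and at most 1 letter. The rule found 78 genes among 52032 named genes, 49 named for the large subunit (Mrpl) and 29 for the small subunit (Mrps). All 78 had a mean of at least 1 FPKM, fragments scaled to transcript length and to the mapped fragments of a library, and so all of them were among the 11270 genes tested.

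The livers came from wild-type mice fed CDAHFD, a high-fat diet that lacks choline and holds defined amino acids, which gives a fatty, inflamed and scarring liver. Each mouse group received human circulating extracellular vesicles into a vein. In 4 libraries (RIC_hEV) the vesicles came from volunteers after remote limb ischemic conditioning, repeated short stops of blood flow to a limb, and in the other 4 libraries (ctr_hEV) from volunteers after a sham procedure. The diet, the genotype, the tissue and the human origin of the vesicles were thus common to both groups, and no group without vesicles or on another diet was analysed here. The sources used here do not give strain, sex, age, vesicle dose or time of harvest. Nor do they say whether each library is a separate mouse, so the p-values measure only the spread between these libraries, which may be technical.

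Total FPKM per library lay between 389616 and 430326, and the estimated depth between 19300000 and 28700000 fragments. The tissue label matched its markers: the summed level of 8 hepatocyte genes was 28617 to 43830 FPKM in every library, against at most 0.325 FPKM for 5 skeletal muscle genes. ctr_hEV 1 and ctr_hEV 3 stood apart from the rest on the leading principal component of all tested genes (-36.1 and -23.3, with 44.4% of the variance). Results without these libraries are therefore also given for the members as a group and for some of the genes whose change turned or moved. Over all tested genes the median log2 change, RIC_hEV minus ctr_hEV, was -0.11. Changes are therefore as fitted unless called relative to that median gene. Both are given for the members as a group and for some single genes.

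Mitochondria keep their own ribosome, which reads only the few messages of the mitochondrial genome, all of them for core subunits of the respiratory chain and of ATP synthase. Its RNAs are made inside the organelle, whereas every protein of it is encoded in the nucleus, made in the cytosol and imported. Many of these proteins descend from bacterial ribosomal proteins, and others were added in the course of mitochondrial evolution. Hepatocytes are rich in mitochondria. Nuclear respiratory factor 1 (NRF1), GA-binding protein of the ETS family and YY1 are known to bind promoters of many nuclear genes for mitochondrial proteins.

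A trait the symbols do not use is how these genes begin. In the GENCODE M21 annotation of GRCm38 (mm10), 26 of the 78 genes (33.3%) had a protein-coding neighbour on the other strand whose start lay within 1000 bases, head to head, against 2092 of 21951 protein-coding genes (9.53%). These 26 genes formed 25 pairs, because Mrpl46 of the large subunit and Mrps11 of the small subunit on chromosome 7 were each other's neighbour. Other partners also serve mitochondria: Mrps12 began opposite Sars2, the mitochondrial seryl-tRNA synthetase, Mrpl36 opposite Ndufs6, a subunit of complex I, and Mrps27 opposite Ptcd2, a pentatricopeptide protein of mitochondrial RNA processing. Mrpl49 lay opposite Fau, which encodes a cytosolic ribosomal protein, and Mrpl32 opposite Psma2, a proteasome subunit. Chromosome 11 held the most of these genes, 11 in number.

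RefSeq promoter windows (GRCm38.p6, 250 bases before to 50 after a start) were found for 69 of the 78 genes, and 4 sequences were searched on both strands. The ETS core CCGGAAG stood in the windows of 26 of 69 genes (37.7%), against 9.93% of 27025 genes with a window. It was present in 15 of 43 large-subunit and 11 of 26 small-subunit genes. The NRF1 core GCATGCG stood in 8 of 69 (11.6%, against 4.01% of all genes), 7 of them for the large subunit. The YY1 sequence AAGATGG stood in 13 of 69 (18.8%, against 7.28%). The E-box CACGTG, bound by MYC and its relatives, stood in 5 of 69 (7.25%, against 8.09%). A gene can have several windows and several of these sequences, 4 genes held both ETS and NRF1 cores, and 29 held none of the 4 sequences. The NRF1 core overlaps its own reverse complement, so 1 stretch can match on both strands. Base composition was not matched between these windows and those of all genes, and a match shows only that the letters are there.

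These 5 stretches are shown because the results below turn on their genes or because a pair of genes shares them. Each is written 5′ to 3′ on the strand of the first-named gene, with matches to the ETS or NRF1 core in capitals. The stretches before Mrpl34 (chr8:71464806-71464925, plus strand) and Mrpl58 (chr11:115403632-115403751, plus strand) are the 120 bases that end just before the RefSeq start. The other stretches lie between the RefSeq starts of a head-to-head pair: Mrpl46 and Mrps11 (chr7:78783090-78783130, minus strand), Mrpl32 and Psma2 (chr13:14613038-14613241, minus strand) and Mrps27 and Ptcd2 (chr13:99344679-99344785, plus strand). GENCODE places some starts of these pairs inside the stretches.
Mrpl34: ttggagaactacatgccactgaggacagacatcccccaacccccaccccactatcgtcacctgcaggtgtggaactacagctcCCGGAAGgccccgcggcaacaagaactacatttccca
Mrpl58: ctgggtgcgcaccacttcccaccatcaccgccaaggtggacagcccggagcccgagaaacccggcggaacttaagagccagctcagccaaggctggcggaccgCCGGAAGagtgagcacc
Mrpl46 and Mrps11: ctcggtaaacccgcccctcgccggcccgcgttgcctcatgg
Mrpl32 and Psma2: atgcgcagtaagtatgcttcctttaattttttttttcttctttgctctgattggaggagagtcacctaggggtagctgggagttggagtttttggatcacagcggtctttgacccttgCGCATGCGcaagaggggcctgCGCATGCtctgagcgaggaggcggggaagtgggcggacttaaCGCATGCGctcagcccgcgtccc
Mrps27 and Ptcd2: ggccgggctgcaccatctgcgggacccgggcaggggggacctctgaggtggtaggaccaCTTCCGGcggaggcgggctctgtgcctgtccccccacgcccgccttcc

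Mrpl34 and Mrpl58 each had an ETS core close before the start, while the window of Mrpl1, the other gene whose groups did not overlap (below), held none of the 4 sequences. The 41 bases between Mrpl46 and Mrps11 held none of the searched sequences, and the Mrpl32 and Psma2 stretch held 3 copies of the NRF1 core. With and without an ETS core, the median log2 change as fitted was -0.06 in both sets (26 and 43 genes). The 8 genes with an NRF1 core had a median of -0.16 and lay between -0.40 and -0.03, while the 61 others had a median of -0.06 and lay between -0.26 and 0.35. For the YY1 sequence the medians were 0.01 with it (13 genes) and -0.08 without (56 genes). For the E-box they were 0.02 with it (5 genes) and -0.06 without (64 genes). No test was made on these sets.

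All 78 genes were measurable in liver. Mean FPKM over the 8 libraries lay between 1.93 (Mrpl47) and 66.0 (Mrpl12), with a median of 9.88. For comparison, the median level of 79 cytosolic ribosomal protein genes was 95.3 FPKM, of 78 nuclear genes for oxidative phosphorylation subunits 62.0 FPKM, and of all tested genes 4.83 FPKM. The median large-subunit gene stood at 10.9 FPKM (1.93 to 66.0) and the median small-subunit gene at 7.04 FPKM (2.34 to 38.6). The ranges of both subunits overlapped over most of their length. Genes with a bacterial homologue (46) and genes added in mitochondria (29) had median levels of 10.6 and 9.75 FPKM.

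**Figure D1:**
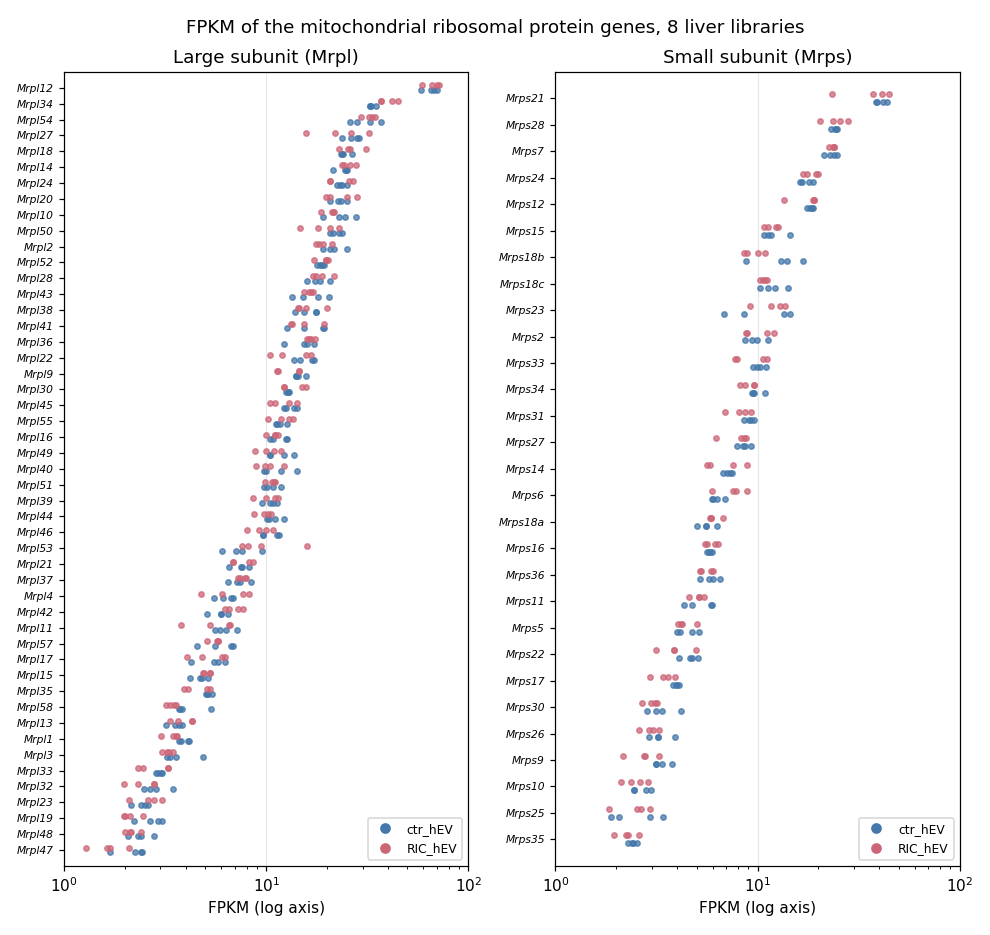
FPKM (log axis) of each mitochondrial ribosomal protein gene in the 8 liver libraries, ordered by mean level, with the large subunit on the left and the small subunit on the right and 1 point per library. Mrpl12 (66.0 FPKM) and Mrps21 (38.6 FPKM) lead the panels, and for nearly every gene the ctr_hEV and RIC_hEV points overlap.

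None of the 78 genes passed the threshold between RIC_hEV and ctr_hEV. The test was limma on log2(FPKM + 1) with Benjamini-Hochberg adjustment over all tested genes, at 0.05, and the lowest limma adjusted p of a member was 0.354. Over all genes the same rule called 4 of 11270 (0.0355%). An unadjusted p under 0.05 was reached by 2 members, Mrpl34 and Mrps18b, against 1576 of all genes (14.0%). The RIC_hEV and ctr_hEV values did not overlap in 3 members: Mrpl34 lay higher in RIC_hEV (148 of all genes did so, 1.31%), and Mrpl1 and Mrpl58 lay lower (514 of all genes, 4.56%). Measured against all genes, none of these counts of members was in excess. A liver piece holds several cell types, and fewer cells of a type cannot be told apart from less RNA per cell.

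The 95% interval of the change as fitted, in FPKM + 1, lay within 1.5-fold either way in 74 of 78 members (94.9%). Of all tested genes 76.4% did so. Cytosolic ribosomal protein genes and nuclear genes for oxidative phosphorylation subunits each stood at 96.2%. The added 1 narrows the intervals of low genes most, and these sets differ in level, so their shares are not strictly alike. The median standard error was 0.11 on the log2 scale, and the intervals of all members together reached from -0.77 to 0.82. A p above the threshold does not show that the groups were equal, only that differences within these intervals were not resolved with 4 libraries a group.

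As fitted, 29 members lay higher and 49 lower in RIC_hEV, and 3041 of all tested genes (27.0%) lay higher. Relative to the median gene the split turned, with 48 members higher and 30 lower (61.5% higher, where all genes split evenly by construction). The median log2 change of the members was -0.06 as fitted and 0.05 relative to the median gene, and single genes ran from -0.40 (Mrps18b) to 0.35 (Mrpl53). The direction of the members as a group thus depended on the scaling: after centring each library on its median, 54 members lay higher, and on a TPM scale (each library scaled to 1 common total) 15 did. Without ctr_hEV 1 and ctr_hEV 3, 35 members lay higher as fitted and 39 relative to the median gene. Over all alternatives the count above the median gene lay between 33 (no filter on low values) and 64 (library weights). The change of 5 single members turned sign as fitted without both libraries (Mrpl43, Mrpl57, Mrps11, Mrps15 and Mrps25) and that of 13 relative to the median gene. With 1 library left out at a time, 3 to 10 members turned as fitted, 10 of them without RIC_hEV 1.

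The large and the small subunit were described side by side, and the difference between them was not tested. Relative to the median gene, 30 of 49 large-subunit genes (61.2%) and 18 of 29 small-subunit genes (62.1%) lay higher, and 0 of either passed. The median log2 change as fitted was -0.04 for the large subunit (-0.26 to 0.35) and -0.06 for the small subunit (-0.40 to 0.22). Relative to the median gene the values were 0.07 and 0.05. The difference of these medians, 0.02, lay between -0.01 and 0.05 over every alternative processing and every library left out. It was below 0 without ctr_hEV 3 and at 0 after rounding with quantile normalization or without RIC_hEV 1. Assigned by the place of the protein in the ribosome instead of by symbol, which moves Mrps30 and Mrps18a to the large subunit and leaves out Mrps36, the medians as fitted were -0.04 for 51 genes and -0.06 for 26 genes.

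The ratio of summed large-subunit to summed small-subunit FPKM stood at 2.33, 2.36, 2.34 and 2.17 in ctr_hEV 1 to 4 and at 2.43, 2.40, 2.32 and 2.40 in RIC_hEV 1 to 4. ctr_hEV 4 was the lowest of the 8, and RIC_hEV 3 lay below 3 of the ctr_hEV libraries, so the groups overlapped. The mean was 2.30 ± 0.0876 in ctr_hEV and 2.39 ± 0.0472 in RIC_hEV (SD, n = 4 each). All members together summed to 944 ± 53.7 FPKM in ctr_hEV and 927 ± 63.9 FPKM in RIC_hEV, 0.203% to 0.262% of a library's FPKM. Genes with a bacterial homologue had a median log2 change as fitted of -0.03, and genes added in mitochondria of -0.10.

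**Figure D2:**
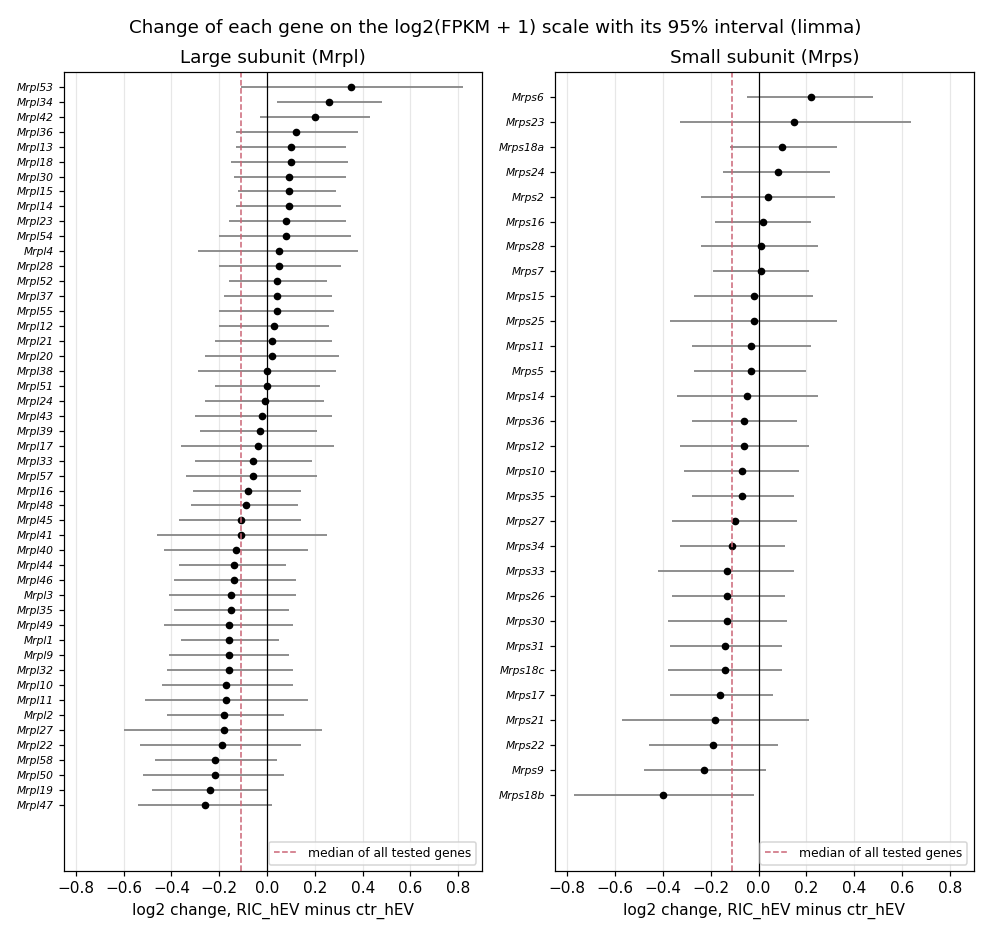
Log2 change of each gene as fitted, RIC_hEV minus ctr_hEV on the log2(FPKM + 1) scale, with its 95% interval, by subunit and in order of the change; the dashed line marks the median of all tested genes (-0.11). The intervals of nearly all genes include 0, with Mrpl34 (0.04 to 0.48) above it and Mrps18b (-0.77 to -0.02) below it.

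The extreme values of the members were spread unevenly over the libraries. RIC_hEV 1 held the lowest of the 8 values for 26 of the 78 members, RIC_hEV 4 for 15 and ctr_hEV 4 for 13, while ctr_hEV 1 and ctr_hEV 3 did so for 2 each. ctr_hEV 1 held the highest value for 28 members and RIC_hEV 3 for 14. Part of this order was that of all genes, of which 26.9% were lowest in RIC_hEV 1 and 44.7% highest in ctr_hEV 1. Elsewhere the members and all genes parted. Of all genes 7.70% had their lowest value in RIC_hEV 4, and 6.82% their highest value in RIC_hEV 3. RIC_hEV 2 held the lowest value for 5 of the 78 members and the highest for 10, against 16.0% and 6.70% of all genes.

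The median deviation of the members from each gene's own mean, on the log2 scale, was 0.12, 0.02, 0.00 and -0.05 in ctr_hEV 1 to 4. In RIC_hEV 1 to 4 it was -0.12, 0.05, 0.06 and -0.07. RIC_hEV 2 and RIC_hEV 3 thus lay above the gene mean and RIC_hEV 1 and RIC_hEV 4 below it. The subunits moved together: the large-subunit median was -0.13, 0.06, 0.05 and -0.06 in RIC_hEV 1 to 4, and the small-subunit median -0.08, 0.04, 0.07 and -0.08. The cytosolic ribosomal protein genes had the same signs in these libraries, at -0.13, 0.09, 0.21 and -0.14, whereas all tested genes stood at -0.11, -0.06, -0.05 and 0.00. The estimated depth was lowest in RIC_hEV 4 (19300000 fragments) and next in RIC_hEV 2 (20000000), and its part in these medians was not tested.

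**Figure D3:**
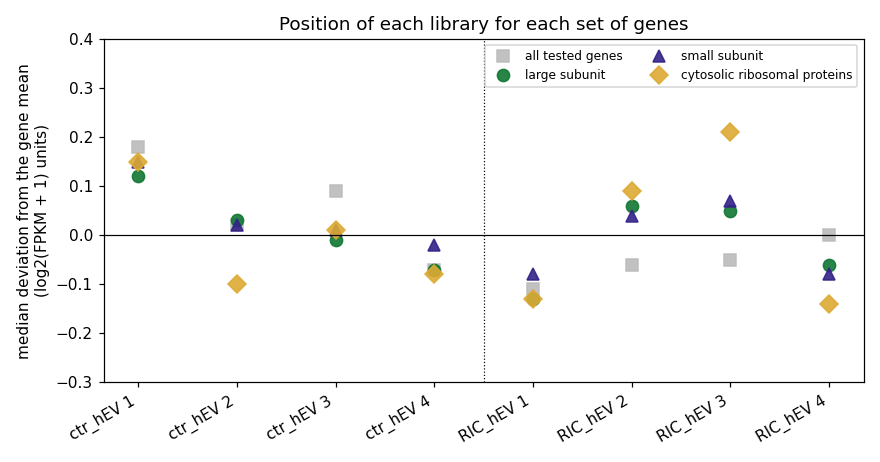
Median deviation from the gene mean in each library (log2(FPKM + 1) units, vertical axis) for all tested genes, large-subunit genes, small-subunit genes and cytosolic ribosomal protein genes. The subunits lie within 0.05 of each other in every library, from 0.12 and 0.15 in ctr_hEV 1 to -0.13 and -0.08 in RIC_hEV 1.

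The spread among the RIC_hEV libraries was the larger one for 45 of 78 members (57.7%), against 35.5% of all tested genes, on the log2 scale. The share was higher still among cytosolic ribosomal protein genes (75.9%) and nuclear genes for oxidative phosphorylation subunits (65.4%). The median standard deviation of the members was 0.117 in ctr_hEV and 0.151 in RIC_hEV, and of all tested genes 0.189 and 0.148. Between the highest and lowest library the median member differed 1.41-fold, and at most 2.64-fold (Mrpl53).

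Of the large-subunit genes, Mrpl34 came closest to a group difference. It encodes bL34m, homologue of a short basic bacterial protein that binds ribosomal RNA, and lies on chromosome 8 (71464959 to 71465747, plus strand). Its levels were 34.9, 32.9, 32.7 and 32.7 FPKM in ctr_hEV 1 to 4 and 41.9, 36.9, 36.9 and 44.7 FPKM in RIC_hEV 1 to 4. Every RIC_hEV library lay above every ctr_hEV library, and RIC_hEV 1 and RIC_hEV 4, the libraries where many other members were lowest, were the highest here. The log2 change was 0.26 as fitted (SE 0.10, 95% interval 0.04 to 0.48, limma adjusted p = 0.354) and 0.37 relative to the median gene. Its exons overlapped no other gene's and shared none of their 31-base stretches with another gene.

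Mrpl1 and Mrpl58 were the members whose RIC_hEV values all lay below ctr_hEV. Mrpl1 encodes uL1m, the protein of the mobile L1 stalk at the exit side for spent tRNA. Its levels were 3.79, 4.09, 4.13 and 3.72 FPKM in ctr_hEV 1 to 4 and 3.02, 3.59, 3.63 and 3.47 FPKM in RIC_hEV 1 to 4, a log2 change of -0.16 as fitted (SE 0.09, limma adjusted p = 0.427). The gap between the groups was narrow, 3.63 to 3.72 FPKM. Mrpl58, also known as ICT1, has the fold of a release factor and can free peptides from stalled ribosomes. It stood at 3.84, 5.32, 3.76 and 3.70 FPKM in ctr_hEV 1 to 4 and at 3.18, 3.48, 3.57 and 3.36 FPKM in RIC_hEV 1 to 4 (log2 change -0.22 as fitted, SE 0.12, limma adjusted p = 0.392). ctr_hEV 2 was far above the other libraries, and the remaining ctr_hEV values lay just over those of RIC_hEV. Without ctr_hEV 2 the change of Mrpl58 was -0.12 as fitted (limma adjusted p = 0.580) and 0.00 relative to the median gene, and without ctr_hEV 1 and ctr_hEV 3 it was -0.31 and -0.28.

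The stalk that recruits translation factors to the large subunit is formed by bL12m on uL10m, with uL11m at its base. Mrpl12 (bL12m), the most abundant of the 78, stood at 70.2, 67.4, 65.7 and 58.2 FPKM in ctr_hEV 1 to 4 and at 59.2, 71.6, 69.9 and 66.0 FPKM in RIC_hEV 1 to 4. These ranges overlapped almost wholly, with a log2 change of 0.03 (SE 0.10, limma adjusted p = 0.908). Mrpl10 (uL10m) stood at 27.8, 22.9, 24.5 and 19.0 FPKM in ctr_hEV and at 21.7, 18.7, 21.2 and 21.4 FPKM in RIC_hEV (log2 change -0.17, limma adjusted p = 0.498). Mrpl11 (uL11m) was lower, at 7.15, 6.33, 5.61 and 5.94 FPKM in ctr_hEV and 5.26, 6.55, 6.62 and 3.79 FPKM in RIC_hEV (log2 change -0.17, limma adjusted p = 0.577). RIC_hEV 4 was the lowest library for Mrpl11, and RIC_hEV 1 also lay below every ctr_hEV library. Without RIC_hEV 4 the change of Mrpl11 relative to the median gene went from -0.06 to 0.10.

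Mrpl27 encodes bL27m, which in bacteria reaches the peptidyl transferase centre. Its levels were 28.7, 26.3, 28.3 and 23.7 FPKM in ctr_hEV 1 to 4 and 15.8, 32.4, 26.4 and 21.9 FPKM in RIC_hEV 1 to 4. RIC_hEV 1 and RIC_hEV 2 held the lowest and the highest value of the 8, a 2.06-fold range within 1 group. The log2 change was -0.18 (SE 0.19, limma adjusted p = 0.612), and without RIC_hEV 1 the change relative to the median gene turned from -0.07 to 0.09. Mrpl27 begins head to head with Eme1, overlaps it, and has 38.9% of its 31-base stretches in common with other genes, so its level is uncertain.

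Mrpl45, which tethers the exit of the nascent chain to the inner membrane, had a log2 change of -0.11 (13.2 ± 0.920 FPKM in ctr_hEV, 12.2 ± 1.75 in RIC_hEV). Mrpl44, with the fold of ribonuclease III, stood at 11.0 ± 0.962 and 9.83 ± 0.819 FPKM (log2 change -0.14). Mrpl54, among the 4 most abundant large-subunit genes, stood at 30.8 ± 4.92 and 32.3 ± 2.24 FPKM (log2 change 0.08). Its change as fitted was 0.25 without ctr_hEV 1 and ctr_hEV 3, and 0.00 without ctr_hEV 2. At the low end, Mrpl48 of the central protuberance stood at 2.39 ± 0.298 and 2.17 ± 0.171 FPKM (log2 change -0.09). Mrpl47, which encodes uL29m near the tunnel exit, read 2.25, 2.41, 2.42 and 1.69 FPKM in ctr_hEV 1 to 4 and 1.64, 1.68, 2.09 and 1.28 FPKM in RIC_hEV 1 to 4. It had the lowest change among large-subunit genes (-0.26, SE 0.12, limma adjusted p = 0.368), with ctr_hEV 4 inside the range of RIC_hEV.

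Mrpl53 had the highest change upward as fitted, 0.35 (SE 0.21, limma adjusted p = 0.424), and was picked for mention after its values were seen. Its levels were 9.49, 6.07, 7.63 and 7.10 FPKM in ctr_hEV 1 to 4 and 7.55, 16.0, 8.12 and 9.42 FPKM in RIC_hEV 1 to 4. RIC_hEV 2 stood far above the rest, and the other RIC_hEV libraries lay within the range of ctr_hEV. Without RIC_hEV 2 the log2 change as fitted was 0.14 (SE 0.15, limma adjusted p = 0.697). Without ctr_hEV 1 and ctr_hEV 3 it was 0.52 (SE 0.25, limma adjusted p = 0.883). With 84.4% of its 31-base stretches shared with other genes, among them an overlapping gene model on the same strand, it had the least certain level of the 78.

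Of the small-subunit genes, Mrps18b had the lowest change. It encodes mS40, 1 of 3 mammalian relatives of bacterial bS18, and lies on chromosome 17 (35910379 to 35916389, minus strand). Its levels were 16.7, 14.0, 13.1 and 8.80 FPKM in ctr_hEV 1 to 4 and 10.9, 10.0, 8.52 and 8.82 FPKM in RIC_hEV 1 to 4. The values in ctr_hEV 1, 2 and 3 lay above every RIC_hEV library, while ctr_hEV 4 lay at their low end. The log2 change was -0.40 as fitted (SE 0.17, 95% interval -0.77 to -0.02, limma adjusted p = 0.354) and -0.29 relative to the median gene. Without ctr_hEV 4 the adjusted p was 0.0555, the lowest reached by any member in any analysis, and without ctr_hEV 1 and ctr_hEV 3 it was 0.895, with a relative change of -0.18. Its promoter window held both an ETS and an NRF1 core. Ppp1r10, which starts 45 bases away in the other direction, had a log2 change of 0.13 (limma adjusted p = 0.672). Of the 31-base stretches of Mrps18b, 31.6% occur in other genes too.

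The other relatives of bS18 had changes nearer to 0. Mrps18a, whose protein (mL66) sits in the large subunit in spite of its symbol, stood at 6.33, 5.01, 5.54 and 5.58 FPKM in ctr_hEV 1 to 4 and at 6.78, 5.91, 5.80 and 5.91 FPKM in RIC_hEV 1 to 4 (log2 change 0.10, limma adjusted p = 0.596). Mrps18c (bS18m) stood at 10.3, 14.2, 12.2 and 11.2 FPKM in ctr_hEV and at 11.1, 10.9, 10.6 and 10.3 FPKM in RIC_hEV (log2 change -0.14, limma adjusted p = 0.517). The change of Mrps18c as fitted was -0.06 without ctr_hEV 2 and -0.21 without ctr_hEV 1 and ctr_hEV 3. Other genes share 34.5% of the 31-base stretches of Mrps18c. In Mrps18a and Mrps18c the groups overlapped, and the differences between the 3 relatives of bS18 were not tested. Mrps30, whose protein (mL65) also sits in the large subunit, stood at 3.37 ± 0.564 and 2.98 ± 0.227 FPKM (log2 change -0.13). Mrps36, which later work places in the 2-oxoglutarate dehydrogenase complex and not in the ribosome, stood at 5.87 ± 0.579 and 5.58 ± 0.415 FPKM (log2 change -0.06).

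Mrps12 encodes uS12m, a protein of the decoding centre. Its levels were 18.7, 18.1, 17.5 and 18.6 FPKM in ctr_hEV 1 to 4 and 19.0, 19.0, 18.9 and 13.5 FPKM in RIC_hEV 1 to 4. All libraries but RIC_hEV 4 lay close together, and RIC_hEV 4 lay far below them (log2 change -0.06, SE 0.12, limma adjusted p = 0.815). Without RIC_hEV 4 the change as fitted turned to 0.06 (SE 0.10, limma adjusted p = 0.758). Sars2, opposite it, read 2.03, 1.24, 1.59 and 1.65 FPKM in ctr_hEV 1 to 4 and 1.30, 1.89, 1.72 and 1.36 FPKM in RIC_hEV 1 to 4, where RIC_hEV 4 did not stand apart.

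Mrps21 encodes bS21m and led the small-subunit genes in level. It stood at 38.9, 41.5, 38.4 and 43.8 FPKM in ctr_hEV 1 to 4 and at 23.4, 41.4, 44.7 and 37.2 FPKM in RIC_hEV 1 to 4. RIC_hEV 1 held the low value and RIC_hEV 3 the highest, and the other RIC_hEV libraries lay around the ctr_hEV range (log2 change -0.18, SE 0.18, limma adjusted p = 0.601). Without RIC_hEV 1 the change relative to the median gene turned from -0.07 to 0.11, and without ctr_hEV 1 and ctr_hEV 3 it was -0.22. Mrps7 (uS7m, in the head of the small subunit) was among the steadiest, at 23.3 ± 1.47 FPKM in ctr_hEV and 23.5 ± 0.687 in RIC_hEV (log2 change 0.01, 95% interval -0.19 to 0.21). Mrps28 (bS1m) stood at 24.2 ± 0.764 and 24.4 ± 3.15 FPKM (log2 change 0.01). The least abundant small-subunit genes were Mrps35 (2.41 ± 0.104 and 2.27 ± 0.270 FPKM, log2 change -0.07) and Mrps25 (2.58 ± 0.724 and 2.49 ± 0.462 FPKM, log2 change -0.02). The change of Mrps25 as fitted turned to 0.22 without ctr_hEV 1 and ctr_hEV 3, to 0.08 without ctr_hEV 1 alone, to 0.03 without ctr_hEV 3 alone and to 0.07 without RIC_hEV 2, and was -0.12 without ctr_hEV 2. Of the 31-base stretches of Mrps25, 68.9% occur in other genes too.

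Some further members are named because their values were seen to lie next in line, and none passed. Mrps6 encodes bS6m, the partner of bS18 on the platform of the small subunit. It stood at 5.97, 6.02, 6.93 and 6.31 FPKM in ctr_hEV 1 to 4 and at 7.80, 5.97, 8.87 and 7.55 FPKM in RIC_hEV 1 to 4 (log2 change 0.22, SE 0.12, limma adjusted p = 0.405). RIC_hEV 2 lay with ctr_hEV and the other RIC_hEV libraries above it. Mrpl42, a protein of the large subunit without a bacterial counterpart, lay between 5.11 and 6.50 FPKM in ctr_hEV and stood at 7.22, 6.52, 7.68 and 6.29 FPKM in RIC_hEV 1 to 4 (log2 change 0.20, SE 0.10, limma adjusted p = 0.390). Only RIC_hEV 4 lay inside the range of ctr_hEV.

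Mrps9 encodes uS9m, whose bacterial form touches the tRNA in the P site with its tail. It stood at 3.78, 3.37, 3.13 and 3.13 FPKM in ctr_hEV 1 to 4 and at 2.15, 3.27, 2.77 and 2.75 FPKM in RIC_hEV 1 to 4 (log2 change -0.23, SE 0.11, limma adjusted p = 0.379). RIC_hEV 2 alone reached into the range of ctr_hEV. Mrpl19, whose bacterial form helps bridge the subunits, stood at 3.05, 2.92, 2.65 and 2.21 FPKM in ctr_hEV 1 to 4 and between 1.97 and 2.47 FPKM in RIC_hEV (log2 change -0.24, SE 0.11, limma adjusted p = 0.359). Here ctr_hEV 4 and RIC_hEV 3 overlapped, and 37.9% of the gene's 31-base stretches occur elsewhere too.

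**Figure D4:**
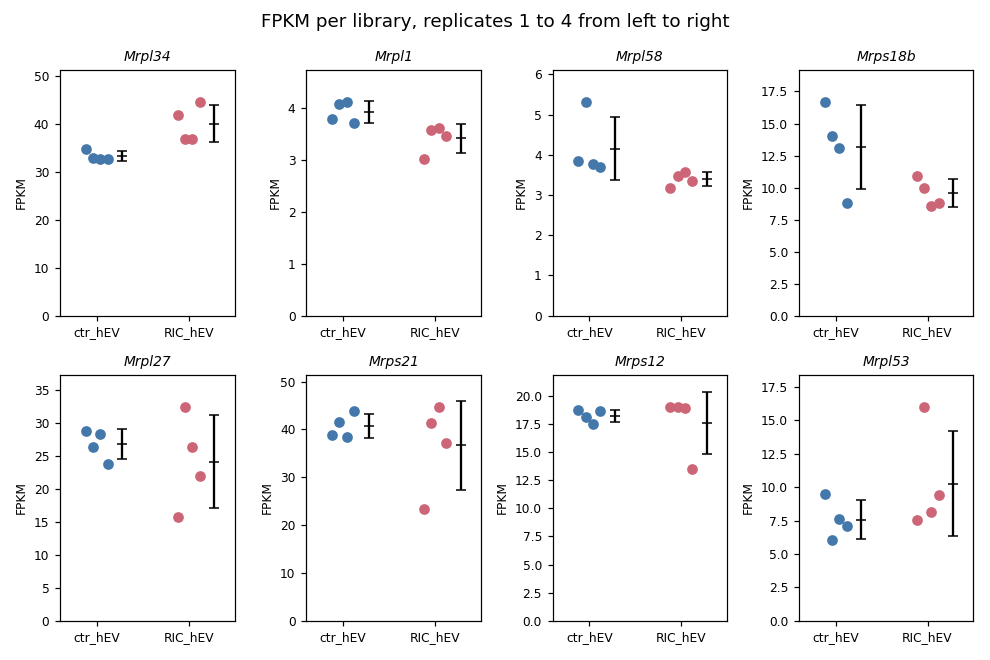
FPKM of 8 genes in each library, replicates 1 to 4 from left to right in each group, with the mean and SD beside the points; all axes start at 0. Mrpl34, Mrpl1 and Mrpl58 show groups without overlap, whereas single libraries stand apart in Mrpl27 and Mrps21 (RIC_hEV 1), Mrps12 (RIC_hEV 4) and Mrpl53 (RIC_hEV 2).

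The only large and small pair with a shared start region, Mrpl46 and Mrps11, had overlapping groups in both genes. Mrpl46, of the central protuberance, stood at 11.3, 11.6, 9.67 and 9.59 FPKM in ctr_hEV 1 to 4 and at 9.21, 10.8, 10.0 and 8.03 FPKM in RIC_hEV 1 to 4 (log2 change -0.14, limma adjusted p = 0.542). Mrps11, which encodes uS11m, stood at 5.87, 4.74, 5.95 and 4.33 FPKM in ctr_hEV and at 4.60, 5.13, 5.14 and 5.40 FPKM in RIC_hEV (log2 change -0.03, limma adjusted p = 0.910). RIC_hEV 4 was the lowest library for Mrpl46 and the highest RIC_hEV library for Mrps11. Counting Mrpl46 and Mrps11 themselves, 19 of the head-to-head neighbours were tested and 0 passed, while 7 lay under the minimum mean of 1 FPKM. Exons of 20 of the 78 members (25.6%) overlapped those of a protein-coding gene on the other strand, this pair included. The sources used here name no strand setting, and without one reads of such overlapping genes cannot be told apart.

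The rest of the mitochondrial translation pathway gave 0 genes past the threshold as well, in lists chosen by function. Of mitochondrial ribosomal proteins under other symbols 5 were tested. Aurkaip1, which encodes mS38, stood at 15.3 ± 1.67 FPKM in ctr_hEV and 18.2 ± 1.62 in RIC_hEV (log2 change 0.24, limma adjusted p = 0.359), and Chchd1, which encodes mS37, at 18.0 ± 2.20 and 19.5 ± 4.06 FPKM. Of 25 tested factors that assemble the ribosome, 6 lay higher and 19 lower as fitted, and 16 lay above the median gene. Rpusd4, a pseudouridine synthase of the large ribosomal RNA, stood at 2.96 ± 0.540 and 2.09 ± 0.264 FPKM (log2 change -0.35, limma adjusted p = 0.353). Nsun4, an RNA methyltransferase that also aids subunit joining, stood at 2.08 ± 0.271 and 1.63 ± 0.130 FPKM with no overlap between groups (log2 change -0.23, limma adjusted p = 0.354). It was the only 1 of these 25 genes without overlap, and 4.56% of all genes lay lower without overlap.

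Of 16 translation factors, 4 lay higher and 12 lower as fitted (median -0.04), and 14 lay above the median gene. Tufm, the elongation factor that brings tRNA, stood at 26.9 ± 2.80 FPKM in ctr_hEV and 28.6 ± 3.95 in RIC_hEV. Gfm1, which drives translocation, stood at 21.7 ± 1.02 and 23.7 ± 2.24 FPKM. Of 17 tested genes that charge mitochondrial tRNA, 3 lay higher and 14 lower as fitted (median -0.06), and 13 lay above the median gene. Of 17 tested genes for mitochondrial transcription and RNA processing, likewise 3 lay higher and 14 lower (median -0.07), and 10 lay above the median gene. Hsd17b10, a subunit of mitochondrial ribonuclease P and an enzyme of isoleucine breakdown, stood at 73.6 ± 14.6 and 92.2 ± 7.05 FPKM with no overlap (log2 change 0.34, limma adjusted p = 0.354). It read 52.1 FPKM in ctr_hEV 1 and 82.1, 83.3 and 76.9 FPKM in ctr_hEV 2 to 4. Of 9 tested nuclear regulators, Gabpa, the DNA-binding part of GA-binding protein, stood at 7.48 ± 0.422 and 6.58 ± 0.234 FPKM with no overlap (log2 change -0.16, limma adjusted p = 0.406). Hsd17b10 and Gabpa were each the only gene of their list without overlap. Of all genes 1.31% lay higher and 4.56% lower in RIC_hEV without overlap. Ppargc1a, a coactivator of mitochondrial biogenesis, stood at 3.66 ± 0.989 and 4.65 ± 0.689 FPKM (log2 change 0.29, limma adjusted p = 0.392).

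The 13 mitochondrially encoded messages, the templates of this ribosome, summed to 64922 ± 7462 FPKM in ctr_hEV and 71642 ± 2576 in RIC_hEV. Of the 13, 0 passed the threshold and 12 lay higher as fitted. The groups overlapped, with the sum in ctr_hEV 4 (72723 FPKM) above those in RIC_hEV 2 to 4. The sum in RIC_hEV 4 (68553 FPKM) held 5271 FPKM of mt-Atp6, which read 829 to 1266 FPKM in every other library. In ctr_hEV 1, where 28 of the ribosomal protein genes had their highest value, the mitochondrially encoded sum was the lowest of the 8 libraries (55045 FPKM). Compared on the same fit, the median change relative to the median gene was 0.05 for the mitochondrial ribosomal proteins, 0.127 for cytosolic ribosomal proteins (74 of 79 above the median gene) and 0.236 for nuclear oxidative phosphorylation subunits (75 of 78 above it). None of these list differences was tested.

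Summed levels of markers of other cells and of stress genes are given beside these values. The summed level of 8 neutrophil markers was 12.8 to 70.4 FPKM in ctr_hEV and 6.68 to 15.7 in RIC_hEV. S100a9 (18.3 ± 12.2 and 4.69 ± 2.66 FPKM) and S100a8 (11.8 ± 7.22 and 3.61 ± 0.803 FPKM) made up most of it. Ly6g was at most 0.183 FPKM in ctr_hEV and was listed at 0 in ctr_hEV 4 and in every RIC_hEV library. The 6 cholangiocyte markers summed to 26.3 to 146 FPKM in ctr_hEV, highest in ctr_hEV 1 (146) and ctr_hEV 3 (108), and to 20.2 to 39.0 in RIC_hEV. Spp1 alone made up most of the cholangiocyte sum (68.5 ± 53.4 and 23.6 ± 8.51 FPKM). The 7 B and plasma cell markers summed to 13.8 to 25.6 FPKM in ctr_hEV and 42.4 to 54.0 in RIC_hEV. Most of that sum was the immunoglobulin light chain gene Igkc (18.9 ± 5.30 and 44.9 ± 5.20 FPKM), while the B cell genes Cd79a (0.318 and 0.319 FPKM), Cd79b (0.885 and 0.834) and Ms4a1 (0.0537 and 0.0591) had similar means in both groups. All 8 hepatocyte markers lay higher in RIC_hEV as fitted (median log2 change 0.247), 4 of them at an unadjusted p under 0.05 and 0 past the threshold. All 11 heat shock genes lay higher in RIC_hEV as fitted, with a median log2 change of 0.37 and 0 past the threshold, and their sum was lowest in ctr_hEV 1 (631 FPKM) and highest in RIC_hEV 3 (1276 FPKM). Macrophage markers summed to 605 ± 163 FPKM in ctr_hEV and 480 ± 68.7 in RIC_hEV, highest in ctr_hEV 1 (793) and ctr_hEV 3 (684). Stellate and fibroblast markers summed to 152 ± 61.1 and 114 ± 14.1 FPKM, again highest in ctr_hEV 1 (231) and ctr_hEV 3 (171). Endothelial markers summed to 76.4 ± 6.33 in ctr_hEV and 79.3 ± 11.3 in RIC_hEV, and T and NK cell markers to 5.56 to 11.0. The part of these cells and genes in the levels of the mitochondrial ribosomal protein genes was not tested.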

How the data were processed

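Liver RNA of 8 libraries was extracted with Trizol and prepared with a VAHTS kit, as the labels' protocols state. Tools listed by the submitters' processing notes, without roles, are HISAT2 2.2.1, HTSeq 0.13.5, FastQC 0.11.9, Trimmomatic 0.38, DESeq2 1.18.1 and R 3.4.1, with build mm10. The sources used here do not give annotation, gene lengths or strand. The authors deposited FPKM per gene and library. Of 55335 rows, 3225 without a name (0.176% to 0.207% of a library's FPKM) were left out; of 78 symbols on more than 1 row the row of highest mean was kept; 26 date-like symbols stayed in the tests unnamed. Genes were tested where their mean was 1 FPKM or more, as log2(FPKM + 1) with limma 3.58.1 under R 4.3.3 (mean-variance trend, two-sided, Benjamini-Hochberg, threshold 0.05), after the code was tested on simulated data. A fold change on this scale understates that of low genes. Standard errors, intervals and p-values belong to the change as fitted, not to the change relative to the median gene. Depth was estimated from FPKM times GENCODE M21 exon length. Members, lists and tests were chosen with earlier results of these data known. Genes named: those past the threshold, those without overlap between groups, the 4 highest and 2 lowest in level per subunit, and 12 chosen by role. From the lists of the translation pathway and its regulators, genes were named for a low unadjusted p or a high level within their list. Mrpl19, Mrpl42, Mrpl46, Mrpl53, Mrps6, Mrps9 and Mrps11 were added after their values were seen. Alternatives covered the pseudocount, the filter, 3 scalings, a replicate block, library weights and libraries left out.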

Additional observations from a re-analysis of the deposited data

Results flagged for a closer look

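Each of the 78 genes was searched in each group of 4 libraries for a highest or lowest value far from its nearest neighbour, by Dixon's ratio of gap to range at its 95% critical value. Of 156 gene and group pairs 7 had one, and chance alone gives about 1 in 20 groups. In ctr_hEV 1, Mrpl34 (34.9 FPKM, next 32.9) and Mrps34 (10.9 FPKM, next 9.60) were high. In ctr_hEV 2, Mrpl58 was high (5.32 FPKM, next 3.84) and Mrpl14 low (21.4 FPKM, next 24.5). In RIC_hEV 1, Mrps18a was high (6.78 FPKM, next 5.91) and Mrpl57 low (5.08 FPKM, next 5.70). In RIC_hEV 4, Mrps12 was low (13.5 FPKM, next 18.9), the widest of these gaps relative to its group. Mrpl14, Mrpl57 and Mrps34 are named here only for this reason.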

How the results depend on the processing

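No member passed the threshold in any of the alternatives tried. The lowest adjusted p of a member was 0.0555 (Mrps18b without ctr_hEV 4), then 0.0719 (Mrps18b with library weights). Over all genes 2 passed with no filter on low values, 15 with library weights and 1 to 175 with 1 library left out (175 without ctr_hEV 4, 1 without RIC_hEV 3 or RIC_hEV 4). As fitted, the median change of the members turned to 0.08 with median centring (large subunit 0.10, small 0.08) and to 0.06 with quantile normalization (0.06 and 0.06), and 54, 49 and, on the TPM scale, 15 members lay higher. Relative to the median gene, the median turned to -0.03 with no filter (-0.02 and -0.04, with 10 small-subunit genes higher), and for the small subunit to -0.01 without ctr_hEV 1 and ctr_hEV 3. With no filter 28906 genes set the median gene (-0.02 in place of -0.11). The causes of the other shifts were not tested. Relative changes of single genes that turned were, with no filter, Mrpl48 (-0.07), Mrps12 (-0.03), Mrps35 (-0.04) and Mrps36 (-0.04); with quantile normalization Mrps30 (0.02); with library weights Mrpl11 (0.06) and Mrps21 (0.04); and without ctr_hEV 1 and ctr_hEV 3 Mrpl10 (0.02), Mrpl48 (-0.08), Mrps12 (-0.04), Mrps30 (0.02), Mrps35 (-0.01) and Mrps36 (-0.03). With 1 library left out in turn, those that turned had ranges of -0.04 to 0.11 (Mrpl48), -0.05 to 0.04 (Mrps30), -0.14 to 0.06 (Mrps18c), -0.17 to 0.11 (Mrps21), -0.23 to 0.09 (Mrpl27), -0.05 to 0.01 (Mrpl44), -0.01 to 0.11 (Mrps35) and -0.14 to 0.10 (Mrpl11).

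Same-numbered libraries did not deviate together (correlations 0.0525, 0.12, -0.00856 and -0.227 for replicates 1 to 4, and replicate 2 alone correlated best with its own number), so the numbers were not taken as pairs. With the replicate block 3 of all genes and 0 members passed, and the median change of the members stayed at -0.06 as fitted. Depth is known only as an estimate, and no interval that needs counts is given.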
